A study of Mus musculus with 18 samples.

Results

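The genes described here encode the machinery that makes, takes in and stores cholesterol. They are 28 genes given by symbol: the SREBP-2 control system, the enzymes of the mevalonate and sterol branches, and proteins that move or esterify cholesterol. All 28 were matched by Ensembl identifier in a table of 57010 genes, and all 28 passed the filter on low counts that left 15528 genes for testing. Cholesterol is built in the endoplasmic reticulum from acetyl-CoA through mevalonate, isoprenoids, squalene and lanosterol. When membrane sterol is low, SCAP escorts the precursor of the transcription factor SREBP-2 to the Golgi, where it is cut and released to switch on these genes; INSIG proteins hold SCAP back when sterol is plentiful. In the brain, lipoprotein cholesterol cannot cross from blood, so it is made locally, and macrophages and microglia that engulf myelin must store it as ester or export it.

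RNA came from CD11b-selected cells, labelled microglia/macrophages, of wild-type (WT) male mouse brains on day 3, after beads for Ly6G, a neutrophil marker, had been used to remove neutrophils. There were 6 groups of 3 libraries: young mice of 2 to 4 months given vehicle or bexarotene, aged mice of 18 to 20 months given vehicle or bexarotene, and aged mice with ischemic stroke given vehicle or bexarotene. Bexarotene is an agonist of the retinoid X receptor. It was injected into the peritoneum at 5 mg/kg from 24 hours after surgery, with daily doses for 2 days, and the vehicle was 3% DMSO in saline. Whether mice without stroke had surgery is not stated in the sources used here, the stroke was a middle cerebral artery occlusion, and replicates are labelled biological. The selection takes in every CD11b-positive myeloid cell, so resident and infiltrating cells are pooled in a library.

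Libraries held 7582511 to 11852638 counts without stroke and 16206144 to 29359943 with stroke, so depth and stroke cannot be told apart. Summed counts scaled to library size (CPM) of 6 microglial markers were 37076 to 53182 across the 12 libraries without stroke and 15245 to 19908 across the 6 with stroke. Levels of 8 infiltrating monocyte and macrophage markers summed to 72.0 to 115 CPM in aged vehicle and to 2848 to 4605 CPM in aged stroke vehicle libraries, and 8 genes of dividing cells to 24.1 to 35.0 and 554 to 849 CPM. All 8 genes of each of these lists rose with stroke in both treatment settings, and none was at 0 in a whole group, though Vcan, of the monocyte list, was at 0 in some libraries without stroke. Every stroke result below moves with these markers, and their part in it was not tested; in bulk RNA, fewer cells of a type and less RNA per cell cannot be told apart. Oligodendrocyte markers summed to 234 to 267 CPM in aged vehicle and 216 to 257 CPM in aged stroke vehicle libraries, and astrocyte markers to 335 to 484 and 115 to 157 CPM. Slc1a3, averaging 366 and 106 CPM, made up most of the astrocyte sum. Of the 7 astrocyte genes 1 rose, 1 fell and 5 did not pass. Gfap averaged 0.847 and 3.06 CPM and Gja1 9.82 and 21.6 CPM, the 2 with fold changes above zero. Neutrophil markers summed to 195 to 398 CPM in aged vehicle and 577 to 1822 CPM in aged stroke vehicle libraries. Of these 8 genes 4 rose, and 3 had fold changes below zero. S100a8 averaged 80.0 and 447 CPM and S100a9 74.6 and 390 CPM, while Ngp averaged 81.3 and 28.5, Camp 14.0 and 4.39 and Ltf 43.4 and 13.8 CPM. Single libraries stood apart in 7 choroid plexus markers, whose sums were 209, 715 and 2721 CPM in the aged vehicle and 943, 1171 and 3260 CPM in the aged stroke vehicle libraries, from low to high. With their mean log level as a covariate, 16 members passed with stroke in vehicle mice, as many as without it. In bexarotene mice the covariate removed the stroke call of Fdps, and Acat2 and Msmo1 newly passed as lower.

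SREBP-2 binds sterol regulatory elements near the start of its target genes, often beside CCAAT boxes bound by NF-Y. RefSeq promoter entries (GRCm38.p6) were matched for 23 of the 28 genes, in 29 windows of 250 bases ending at the start site; Fdps, Fdft1, Sqle, Stard4 and Npc1 had no entry. CCAAT, searched on both strands, was present for 21 of the 23 genes (91.3%), against 40.8% of the 10260 tested genes with an entry, and in 33.9% of all 32851 windows. Of the members with an entry, it was found for all 9 that rose with stroke in aged vehicle mice (4 others that rose had no entry), 2 of 3 that fell and 10 of 11 that passed in neither direction. The element TCACNCCAC was in 1 member, Hmgcs1, and in 1.05% of all windows. The E-box CACGTG was found for 5 of 23 members and 9.78% of the tested genes with an entry. These matches are letters in a window and describe no binding.

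A selection of 6 windows is shown 5′ to 3′ on the gene's strand, with TCACNCCAC and CCAAT, or their reverse complements, in capitals. Hmgcs1 holds the TCACNCCAC string and Mvk the most CCAAT boxes of the 6. Insig1, Lbr and Soat1 rose with stroke, and Insig2 fell. Insig2 is printed for a start site whose window holds neither motif, while another of its windows, not printed, holds 3 CCAAT boxes.
Hmgcs1, chr13:119690101-119690350 (+): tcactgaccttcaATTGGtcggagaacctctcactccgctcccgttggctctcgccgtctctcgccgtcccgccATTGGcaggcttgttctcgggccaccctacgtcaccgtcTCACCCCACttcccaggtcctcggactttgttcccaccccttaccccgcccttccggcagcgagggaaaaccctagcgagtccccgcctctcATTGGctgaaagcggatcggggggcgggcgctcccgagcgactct
Mvk, chr5:114444019-114444268 (+): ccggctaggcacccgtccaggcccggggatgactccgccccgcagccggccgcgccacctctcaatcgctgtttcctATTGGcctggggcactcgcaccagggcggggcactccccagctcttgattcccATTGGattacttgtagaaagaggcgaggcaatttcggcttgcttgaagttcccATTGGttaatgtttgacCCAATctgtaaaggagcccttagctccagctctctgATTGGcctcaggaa
Insig1, chr5:28071162-28071411 (+): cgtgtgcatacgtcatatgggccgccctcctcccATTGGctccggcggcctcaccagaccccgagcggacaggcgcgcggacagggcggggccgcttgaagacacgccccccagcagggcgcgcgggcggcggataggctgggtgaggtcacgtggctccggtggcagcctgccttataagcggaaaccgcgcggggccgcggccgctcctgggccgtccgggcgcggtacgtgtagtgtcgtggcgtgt
Insig2, chr1:121328025-121328274 (-): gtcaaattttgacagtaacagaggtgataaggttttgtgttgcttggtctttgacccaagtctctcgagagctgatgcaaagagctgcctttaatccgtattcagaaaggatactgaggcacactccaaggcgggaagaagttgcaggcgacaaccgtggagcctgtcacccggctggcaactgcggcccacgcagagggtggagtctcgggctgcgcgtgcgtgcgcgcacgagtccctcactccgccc
Lbr, chr1:181842402-181842651 (-): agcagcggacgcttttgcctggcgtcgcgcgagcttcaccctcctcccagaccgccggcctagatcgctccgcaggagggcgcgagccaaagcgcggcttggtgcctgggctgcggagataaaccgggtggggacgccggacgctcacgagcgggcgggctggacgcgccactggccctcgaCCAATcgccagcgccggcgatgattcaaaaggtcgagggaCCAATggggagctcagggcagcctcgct
Soat1, chr1:156474329-156474578 (-): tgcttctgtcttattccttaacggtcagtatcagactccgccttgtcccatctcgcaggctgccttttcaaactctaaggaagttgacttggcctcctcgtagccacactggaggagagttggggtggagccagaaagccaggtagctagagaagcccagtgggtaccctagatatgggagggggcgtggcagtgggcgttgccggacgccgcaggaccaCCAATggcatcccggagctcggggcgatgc

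The 28 genes together took 0.153 to 0.173% of all counts in aged vehicle libraries and 0.189 to 0.206% in aged stroke vehicle libraries. By role, median sums in these 2 groups were 813 and 1190 CPM for transport and storage. They were 374 and 457 CPM from lanosterol to cholesterol, where Lbr alone averaged 104 and 190 CPM, and 29.1 and 43.4 CPM at squalene. The mevalonate arm had 236 and 225 CPM and the control genes 194 and 162 CPM, and libraries overlapped in both. Levels were compared between genes as CPM per kilobase of exon, with exon lengths from GENCODE M21. Npc2, whose protein carries cholesterol inside lysosomes, was highest in all 6 groups, at 97.6 ± 11.3 CPM per kb (SD, n = 3) in aged vehicle mice. Ebp, a sterol isomerase, followed at 27.7 ± 1.10, Insig2 at 24.9 ± 2.69 and Lbr at 21.9 ± 1.71 CPM per kb, and each neighbouring pair of these 3 means differed by less than the sum of its SDs. At the low end stood Lss, lanosterol synthase, at 0.721 ± 0.059 and Stard4, a cytosolic sterol carrier, at 0.456 ± 0.312 CPM per kb. Insig1 ranked 21 of 28 in aged vehicle and 12 in aged stroke vehicle mice, while Scap moved from rank 11 to 21.

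**Figure D1:**
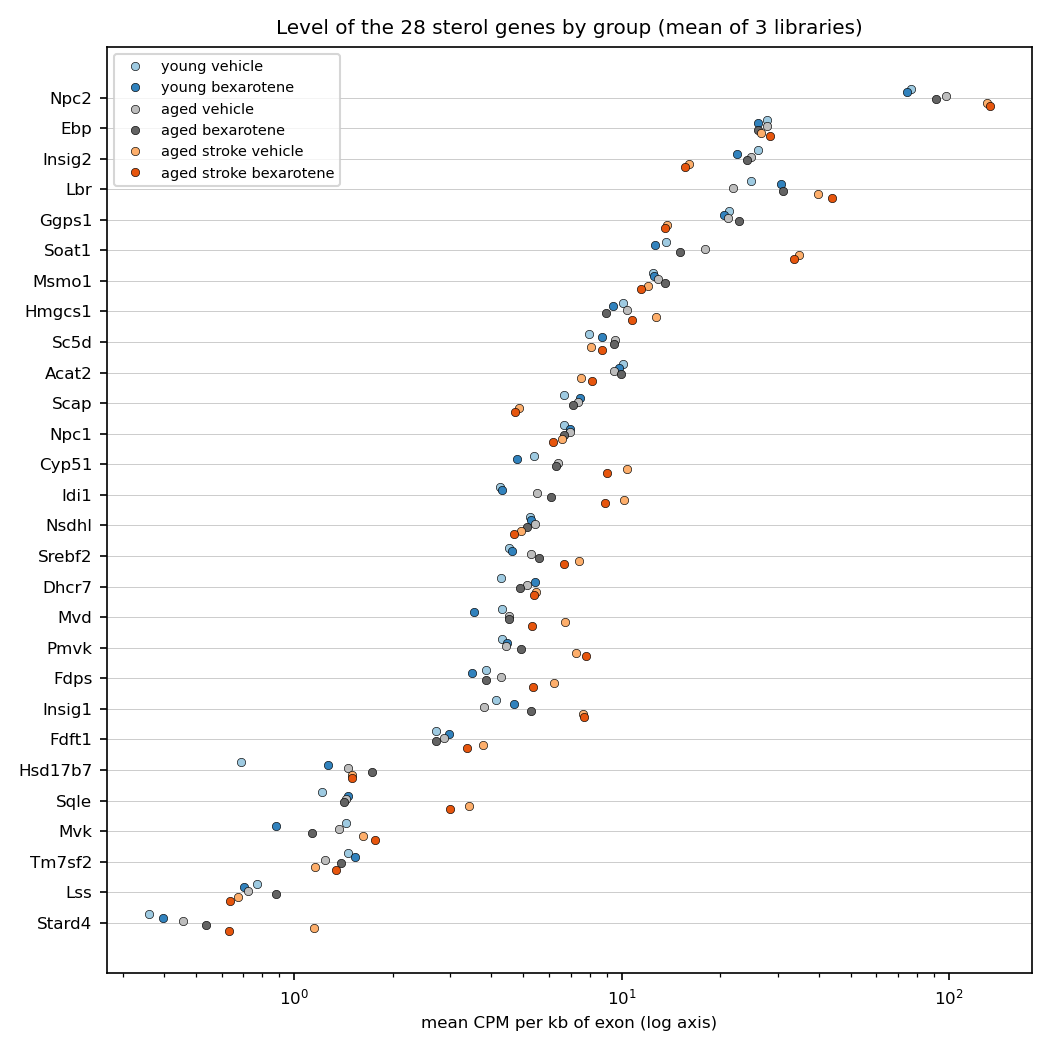
Mean level of each of the 28 sterol genes in the 6 groups, in CPM per kb of exon on a log axis, ordered by the aged vehicle group; each point is the mean of 3 libraries. Npc2 is highest in all groups, Stard4 and Lss are lowest in 5 of 6 groups (in young vehicle mice Hsd17b7 lies between them), and the stroke groups (orange) sit to the right for Insig1, Sqle, Cyp51, Idi1, Lbr and Soat1 and to the left for Scap, Insig2 and Ggps1.

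With stroke in aged vehicle mice, 13 of the 28 sterol genes rose and 3 fell (edgeR quasi-likelihood test, Benjamini-Hochberg adjusted over 15528 genes, called under 0.05). Stroke moved much of the transcriptome: 27.2% of all genes tested rose and 21.1% fell, against 46.4% and 10.7% of the members. The members' median log2 fold change was 0.27, beside 0.023 over all genes tested. Those that rose were Srebf2 and Insig1 among the control genes, Pmvk, Mvd, Idi1 and Fdps in the mevalonate arm, Fdft1 and Sqle at squalene, Cyp51 and Lbr after lanosterol, and Stard4, Npc2 and Soat1 in transport and storage. Scap, Insig2 and Ggps1 fell. Under upper-quartile scaling, which shifted the median of all genes to -0.12, 9 members rose and 6 fell, and the share of all calls that were higher went from 56.2% to 44.5%. Leaving out libraries gave 9 to 17 member calls, the lowest being 9 without replicate 1 and 10 without replicate 3 of every group. Groups did not overlap for 13 members that were higher and 5 that were lower, beside 31% and 25% of all genes.

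With stroke in aged bexarotene mice, which share no library with the vehicle comparison, 9 members rose and 3 fell, beside 26.8% and 21.2% of all genes. All 12 were among the 16 called in vehicle mice and had the same direction, which is 75.0% of the vehicle list and 100.0% of the bexarotene list; over all genes the shares were 82.4% and 83.0%. Of the 28 log2 fold changes, 26 (92.9%) had the same sign in both settings, against 86.8% of all genes. Across the 28 genes the log2 fold changes had Pearson's r = 0.867 between the settings, and across all genes tested r = 0.855; genes are not independent replicates, and the points share the 12 libraries. Srebf2, Mvd, Fdft1 and Stard4 passed in vehicle mice alone, but the differences between the 2 stroke effects, -0.24 ± 0.21, -0.34 ± 0.29, -0.09 ± 0.23 and -1.10 ± 0.65 (log2, SE), did not pass for any of them (edgeR adjusted p = 1.00 for each). The members' median was 0.23, beside 0.0039 over all genes. With upper-quartile scaling the all-gene median was -0.14, 6 members rose and 6 fell, and 44.7% of all calls were higher instead of 55.8%.

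**Figure D2:**
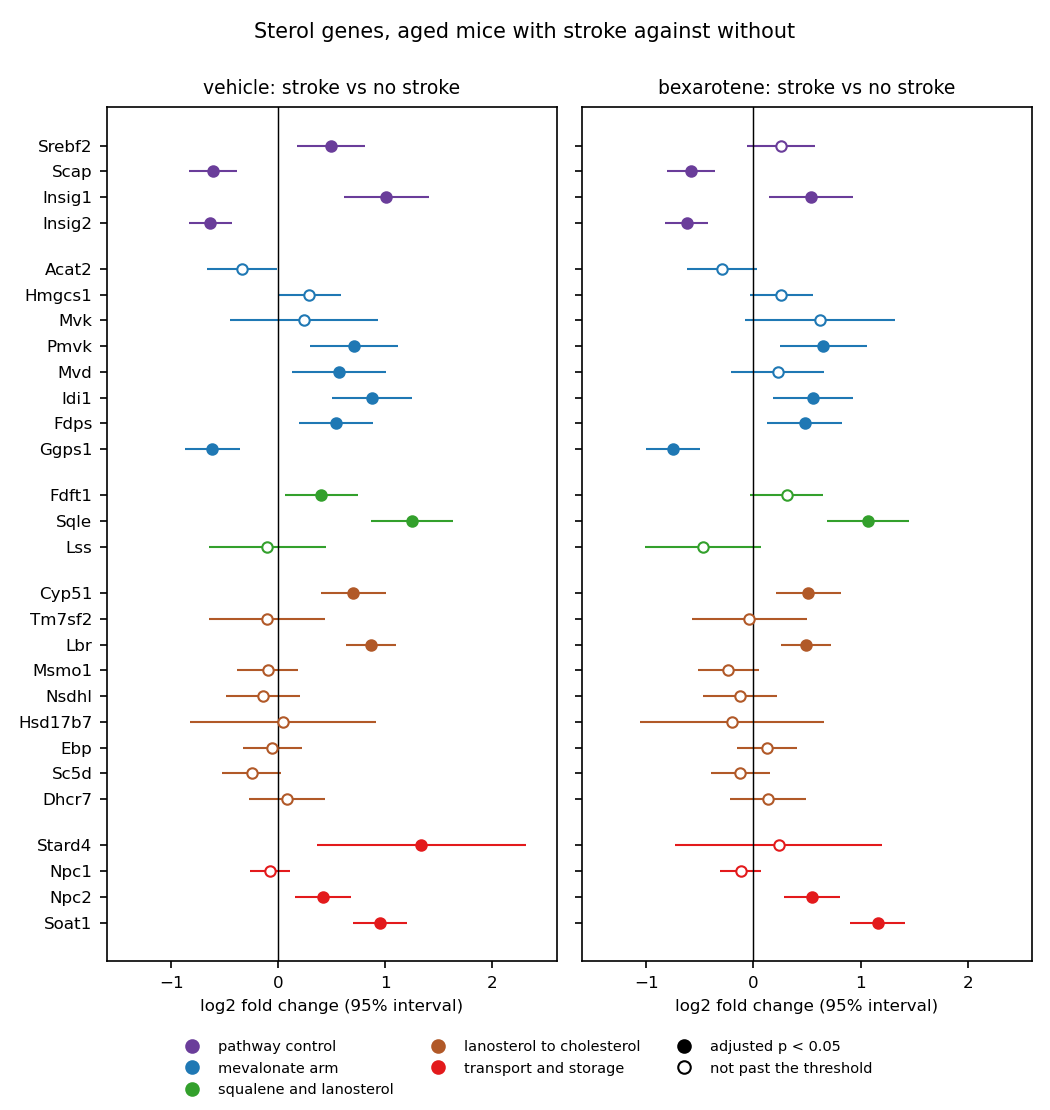
Log2 fold change of each sterol gene with stroke in aged vehicle mice (left) and aged bexarotene mice (right), 3 libraries against 3 in each, with 95% intervals from the edgeR fit; colours give the role and filled points passed adjusted p of 0.05. Sqle, Soat1, Idi1, Lbr and Cyp51 lie to the right and Scap, Insig2 and Ggps1 to the left in both panels.

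The 4 control genes split. Srebf2 (ENSMUSG00000022463), which encodes SREBP-2, was at 35.3, 35.6 and 42.6 CPM in the aged vehicle and 56.7, 49.8 and 53.4 CPM in the aged stroke vehicle libraries. The groups did not overlap, and it rose by log2 0.49 ± 0.15 (SE), edgeR adjusted p = 0.0111. The call was lost without aged vehicle replicate 1 (adjusted p = 0.0602) or replicate 2 (adjusted p = 0.0572). It was also lost without replicate 1 of every group (adjusted p = 0.138) and with upper-quartile scaling (adjusted p = 0.0563). After bexarotene Srebf2 levels were 33.1, 49.2 and 37.9 CPM without and 48.8, 55.5 and 39.8 CPM with stroke, and these overlapped (log2 0.26 ± 0.15 (SE), edgeR adjusted p = 0.169). Without aged bexarotene replicate 2, at 49.2 CPM, the comparison passed (adjusted p = 0.0305). Scap (ENSMUSG00000032485), the escort and sterol sensor, was at 54.7, 52.4 and 57.7 CPM without and 41.9, 35.3 and 31.1 CPM with stroke in vehicle mice. All 3 stroke libraries were below all 3 others, a fall of log2 -0.61 ± 0.11 (SE), edgeR adjusted p = 1.33e-04. In bexarotene mice Scap was at 50.6, 56.7 and 51.3 CPM without and 34.8, 36.3 and 34.6 CPM with stroke, again without overlap (log2 -0.59 ± 0.11 (SE), edgeR adjusted p = 1.82e-04).

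The 2 INSIG genes, which encode the anchors that hold SCAP in the endoplasmic reticulum, moved in opposite directions. Insig1 (ENSMUSG00000045294), itself a target of SREBP-2, was at 11.4, 13.1 and 10.6 CPM in aged vehicle and 23.6, 23.3 and 23.9 CPM in aged stroke vehicle libraries. It rose by log2 1.01 ± 0.19 (SE), edgeR adjusted p = 2.51e-04, and its stroke values lay within 1 CPM of each other. With bexarotene the values were 21.4, 14.2 and 13.6 CPM without and 22.7, 25.5 and 23.0 CPM with stroke. The rise there was log2 0.54 ± 0.19 (SE), edgeR adjusted p = 0.0241, with replicate 1 without stroke at 21.4 CPM, and the difference from the rise in vehicle mice did not pass (-0.47 ± 0.27, log2, SE, adjusted p = 1.00). The call was lost without aged bexarotene replicate 2 (adjusted p = 0.102) or 3 (adjusted p = 0.115), without aged stroke bexarotene replicate 2 (adjusted p = 0.0736) and with upper-quartile scaling (adjusted p = 0.0891). Leaving out replicate 2 or 3 of every group also lost it (adjusted p up to 0.228). Insig2 (ENSMUSG00000003721), a second anchor that is expressed without SREBP-2 in many tissues, was at 75.7, 92.5 and 91.2 CPM without and 59.1, 54.2 and 53.7 CPM with stroke in vehicle mice. It was lower in every stroke library, a fall of log2 -0.64 ± 0.10 (SE), edgeR adjusted p = 2.58e-05. In bexarotene mice its levels were 80.5, 85.5 and 85.1 CPM without stroke and 55.3, 56.0 and 51.7 CPM with stroke (log2 -0.62 ± 0.10 (SE), edgeR adjusted p = 3.17e-05), a fall of nearly equal size.

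In the mevalonate arm 4 of 8 genes rose and 1 fell in vehicle mice, beside 27.2% and 21.1% of all genes. With bexarotene 3 rose and 1 fell, beside 26.8% and 21.2% of all genes. Idi1 (ENSMUSG00000058258), the isomerase that makes the allylic isoprenoid unit, was at 13.9, 24.1 and 20.2 CPM without and 43.4, 27.4 and 35.7 CPM with stroke in vehicle mice. It was highest in stroke replicate 1 and lowest in aged vehicle replicate 1, and rose by log2 0.88 ± 0.18 (SE), edgeR adjusted p = 5.37e-04. The call was lost without replicate 1 of every group (adjusted p = 0.0533). In bexarotene mice it was at 19.3, 23.4 and 21.2 CPM without stroke and 33.1, 32.8 and 27.9 CPM with stroke (log2 0.55 ± 0.18 (SE), edgeR adjusted p = 0.0155). That call was lost without aged bexarotene replicate 1 (adjusted p = 0.0655) or aged stroke bexarotene replicate 1 (adjusted p = 0.0519), without replicate 3 of every group (adjusted p = 0.0842) and with upper-quartile scaling (adjusted p = 0.0600). It was also lost without replicate 1 of every group. Pmvk (ENSMUSG00000027952), phosphomevalonate kinase, was at 8.15, 7.83 and 6.81 CPM in aged vehicle and 11.7, 11.9 and 13.7 CPM in aged stroke vehicle libraries (log2 0.71 ± 0.20 (SE), edgeR adjusted p = 0.00583). With bexarotene the 3 libraries without stroke, at 7.41, 8.92 and 9.03 CPM, were all below the 3 with stroke, at 12.8, 12.8 and 14.3 CPM (log2 0.65 ± 0.19 (SE), edgeR adjusted p = 0.00973). The Pmvk call was lost without replicate 3 of every group in vehicle mice (adjusted p = 0.0714) and without replicate 1 of every group in bexarotene mice (adjusted p = 0.0942).

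Mvd (ENSMUSG00000006517), the decarboxylase after Pmvk, was at 7.52, 8.02 and 9.79 CPM without and 13.3, 10.8 and 13.4 CPM with stroke in vehicle mice, and rose by log2 0.57 ± 0.21 (SE), edgeR adjusted p = 0.0310. The adjusted p was 0.133 and 0.105 without aged vehicle replicates 1 and 2, 0.0951 and 0.0908 without stroke replicates 1 and 3, 0.0930 with upper-quartile scaling and 0.108 with no filter on low counts. Without replicate 1 or 3 of every group Mvd did not pass either (adjusted p up to 0.239). In bexarotene mice its values, 8.03, 10.1 and 7.20 CPM without and 9.05, 11.9 and 8.85 CPM with stroke, overlapped (log2 0.23 ± 0.21 (SE), edgeR adjusted p = 0.394). Fdps (ENSMUSG00000059743), which joins isoprenoid units into farnesyl diphosphate, was at 15.5, 21.3 and 17.2 CPM in aged vehicle and 25.6, 23.8 and 29.3 CPM in aged stroke vehicle libraries (log2 0.54 ± 0.16 (SE), edgeR adjusted p = 0.0108). The corresponding bexarotene values were 18.7, 16.1 and 13.7 CPM without stroke and 22.1, 24.4 and 21.0 CPM with stroke (log2 0.48 ± 0.17 (SE), edgeR adjusted p = 0.0238). Fdps lost its call in vehicle mice without aged vehicle replicate 1 (adjusted p = 0.0791) or 3 (adjusted p = 0.0532) or stroke replicate 3 (adjusted p = 0.0539). In bexarotene mice it was lost without aged bexarotene replicate 2 (adjusted p = 0.0609) or 3 (adjusted p = 0.115) or stroke replicate 2 (adjusted p = 0.0810), and with upper-quartile scaling (adjusted p = 0.0980), no filter on low counts (adjusted p = 0.0532) or the choroid plexus covariate (adjusted p = 0.0743). Leaving out replicate 1 or 3 of every group in vehicle mice, or 2 or 3 in bexarotene mice, also lost the Fdps call (adjusted p up to 0.144 in each).

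Ggps1 (ENSMUSG00000021302), which diverts farnesyl diphosphate to geranylgeranyl diphosphate for protein prenylation and away from sterols, went the other way. It was at 88.5, 106 and 105 CPM without and 76.3, 66.9 and 52.1 CPM with stroke in vehicle mice, and at 98.7, 111 and 113 CPM without stroke and 64.3, 59.1 and 68.4 CPM with stroke in bexarotene mice. Every stroke library lay below every library without stroke, with a fall of log2 -0.62 ± 0.12 (SE), edgeR adjusted p = 3.83e-04 in vehicle mice and of log2 -0.75 ± 0.12 (SE), edgeR adjusted p = 5.75e-05 in bexarotene mice. Exons of Ggps1 overlap Arid4b on the other strand over 5.44% of their length. The 3 remaining mevalonate genes did not pass in either setting: Hmgcs1, HMG-CoA synthase, had 0.29 ± 0.14 and 0.26 ± 0.14, Mvk, mevalonate kinase, 0.24 ± 0.33 and 0.62 ± 0.33, and Acat2, a thiolase, -0.34 ± 0.16 and -0.30 ± 0.15 (log2, SE, vehicle then bexarotene). For Hmgcs1, stroke vehicle values were 70.9, 48.7 and 55.3 CPM against 43.9, 50.8 and 48.4 CPM without stroke, and leaving out stroke replicate 2 brought the adjusted p to 0.0379; in bexarotene mice it was 0.0405 without stroke replicate 1. Acat2 passed as lower in vehicle mice without aged vehicle replicate 1 (adjusted p = 0.0422), with replicate number as a block and with upper-quartile scaling (adjusted p = 0.0152). In bexarotene mice Acat2 passed as lower with upper-quartile scaling (adjusted p = 0.0253) and with the choroid plexus covariate (adjusted p = 0.0200).

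Sqle (ENSMUSG00000022351), squalene epoxidase, which puts the oxygen on squalene and is one of the pathway's control points, rose in both settings. In vehicle mice Sqle was at 8.88, 6.26 and 8.73 CPM without and 19.2, 17.0 and 20.5 CPM with stroke, 2.37-fold higher (log2 1.25 ± 0.18 (SE), edgeR adjusted p = 1.75e-05). In bexarotene mice it was at 7.82, 7.14 and 8.72 CPM without stroke and 17.0, 17.7 and 15.0 CPM with stroke, 2.10-fold higher (log2 1.07 ± 0.18 (SE), edgeR adjusted p = 8.93e-05). The lowest of the 6 stroke libraries, at 15.0 CPM, was above the highest of the 12 without stroke, at 8.95 CPM. Fdft1 (ENSMUSG00000021273), squalene synthase, was at 11.9, 11.5 and 12.95 CPM without stroke and 18.6, 14.0 and 15.4 CPM with stroke in vehicle mice (log2 0.40 ± 0.16 (SE), edgeR adjusted p = 0.0486), and at 10.9, 11.8 and 11.6 CPM without stroke and 12.4, 15.6 and 14.6 CPM with stroke in bexarotene mice (log2 0.31 ± 0.16 (SE), edgeR adjusted p = 0.126). That call was at the threshold and was lost under 14 of 17 alternatives, among them the omission of any aged vehicle replicate (adjusted p = 0.145, 0.161 and 0.0845) or of stroke replicate 1 (0.246) or 3 (0.0724), and with upper-quartile scaling (0.189) the value was 0.26 on the log2 scale. Fdft1 is also uncertain because 18.3% of its exon length overlaps Ctsb on the other strand, which had 33970 to 341773 counts in a library, and neither labels nor headers state whether counting used strand. Lss, which folds the epoxide into lanosterol, had -0.10 ± 0.26 in vehicle and -0.47 ± 0.26 in bexarotene mice (log2, SE) and did not pass.

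Of the 9 genes between lanosterol and cholesterol, 2 rose in each setting and none fell. Of all genes, 27.2% rose and 21.1% fell in vehicle mice, and 26.8% and 21.2% in bexarotene mice. Cyp51 (ENSMUSG00000001467), the lanosterol demethylase, was at 24.0, 34.3 and 26.4 CPM without and 46.5, 40.9 and 50.3 CPM with stroke in vehicle mice (log2 0.70 ± 0.15 (SE), edgeR adjusted p = 6.08e-04). With bexarotene it was at 32.1, 24.0 and 27.4 CPM without stroke and 38.8, 44.4 and 35.9 CPM with stroke (log2 0.51 ± 0.15 (SE), edgeR adjusted p = 0.00723), and groups did not overlap in either setting. The bexarotene call was lost without replicate 2 (adjusted p = 0.0778) or 3 (adjusted p = 0.0513) of every group. Lbr (ENSMUSG00000004880), the lamin B receptor, is a sterol reductase and also an inner nuclear membrane protein that shapes the nucleus of granulocytes. Its vehicle values were 98.6, 114 and 100.5 CPM without and 184, 213 and 172 CPM with stroke (log2 0.86 ± 0.11 (SE), edgeR adjusted p = 4.83e-06), and its bexarotene values 148, 138 and 158 CPM without stroke and 192, 192 and 242 CPM with stroke (log2 0.49 ± 0.11 (SE), edgeR adjusted p = 0.00123). The difference between these 2 stroke effects was -0.37 ± 0.16 (log2, SE), with an unadjusted p of 0.0297 and an adjusted p of 1.00, and so did not pass. Tm7sf2, the other reductase of the same step, showed no call, at -0.11 ± 0.26 and -0.041 ± 0.26 (log2, SE); 12.1% of its exon length overlaps Vps51 on the same strand.

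Downstream of these steps no gene passed in either setting. Of all 15528 genes tested, 8031 did not pass in vehicle and 8078 in bexarotene mice. Ebp, Dhcr7, Msmo1, Nsdhl, Sc5d and Hsd17b7 carry out demethylation, isomerisation, desaturation and reduction. Their log2 fold changes with stroke ranged from -0.25 (Sc5d) to 0.081 (Dhcr7) in vehicle mice and from -0.24 (Msmo1) to 0.14 (Dhcr7) in bexarotene mice. The intervals in vehicle mice were -0.33 to 0.23 for Ebp, -0.27 to 0.44 for Dhcr7, -0.38 to 0.19 for Msmo1 and -0.49 to 0.20 for Nsdhl, so changes of 0.5 either way lay outside these 4. For Sc5d the interval was -0.52 to 0.025, and all 3 stroke vehicle libraries lay below the 3 without stroke. Hsd17b7 had a much wider interval, -0.82 to 0.91, on 19 to 225 counts in a library. With upper-quartile scaling Sc5d passed as lower in vehicle mice (adjusted p = 0.0186) and Msmo1 in bexarotene mice (adjusted p = 0.0260). Msmo1 also passed as lower in bexarotene mice with the choroid plexus covariate (adjusted p = 0.0162).

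In transport and storage, 3 of 4 genes rose in vehicle mice and 2 in bexarotene mice, beside 27.2% and 26.8% of all genes. Soat1 (ENSMUSG00000026600), which esterifies cholesterol for lipid droplets, was at 157, 199 and 174 CPM without and 343, 295 and 383 CPM with stroke in vehicle mice, 1.93-fold higher (log2 0.95 ± 0.12 (SE), edgeR adjusted p = 3.96e-06). With bexarotene it was at 144, 151 and 148 CPM without stroke and 297, 375 and 316 CPM with stroke, 2.23-fold higher (log2 1.16 ± 0.12 (SE), edgeR adjusted p = 4.04e-07). All 6 stroke libraries were at 294.5 CPM or more, above the highest without stroke at 199 CPM. Npc2 (ENSMUSG00000021242) was at 459, 567 and 565 CPM in aged vehicle and 765, 595 and 771 CPM in aged stroke vehicle libraries (log2 0.42 ± 0.13 (SE), edgeR adjusted p = 0.00963), and at 476, 535 and 478 CPM without stroke and 699, 811 and 664 CPM with stroke after bexarotene (log2 0.55 ± 0.13 (SE), edgeR adjusted p = 0.00149). The vehicle call was lost without aged vehicle replicate 1 (adjusted p = 0.0893) or stroke replicate 1 (adjusted p = 0.0562), without replicate 3 of every group (adjusted p = 0.0978) and with upper-quartile scaling (adjusted p = 0.0667). Without replicate 1 of every group it was also lost (adjusted p = 0.204). Npc1, the membrane partner to which NPC2 hands cholesterol, had -0.077 ± 0.091 and -0.12 ± 0.091 (log2, SE), with intervals of -0.27 to 0.11 and -0.31 to 0.074. It passed as lower with upper-quartile scaling (adjusted p = 0.0473 and 0.0222).

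Stard4 (ENSMUSG00000024378), a sterol carrier, was the gene with the fewest counts, 11 to 137 in a library. It was at 1.99, 4.50 and 1.15 CPM in aged vehicle and 6.73, 5.79 and 6.77 CPM in aged stroke vehicle libraries, and rose by log2 1.34 ± 0.46 (SE), edgeR adjusted p = 0.0235. The call was lost without aged vehicle replicate 1 or 3 (adjusted p = 0.0894 and 0.122) and without stroke replicate 1 or 3 (adjusted p = 0.0551 and 0.0559), and without aged vehicle replicate 2, at 4.50 CPM, the log2 fold change was 2.00. Stard4 also did not pass without replicate 1 or 3 of every group (adjusted p up to 0.186). In bexarotene mice the values were 2.06, 3.40 and 3.55 CPM without and 3.85, 3.96 and 2.83 CPM with stroke, and they overlapped (log2 0.23 ± 0.46 (SE), edgeR adjusted p = 0.701). The difference between the 2 stroke effects was -1.10 ± 0.65 (log2, SE), adjusted p = 1.00, so a difference was not shown.

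**Figure D3:**
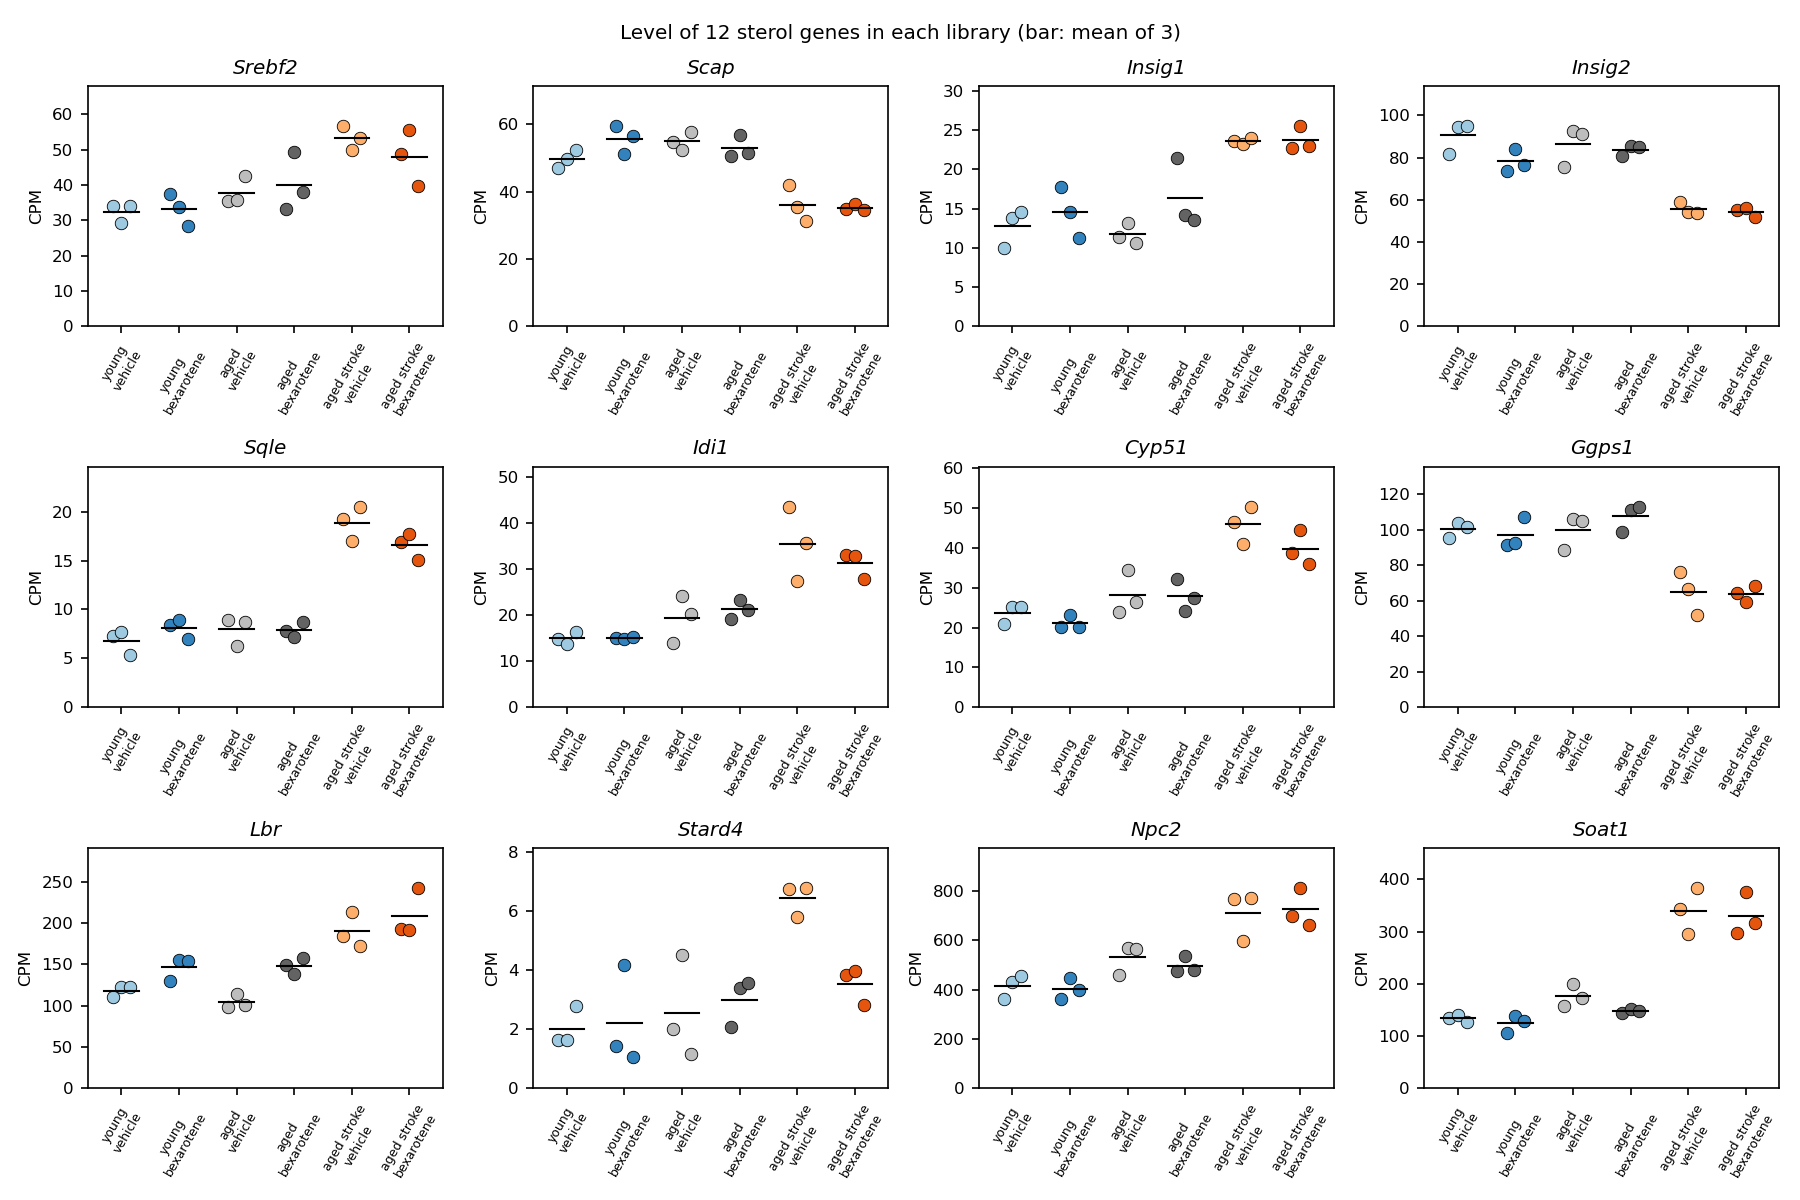
CPM of 12 sterol genes in each of the 18 libraries, from 0 on a linear axis; points are libraries and bars the mean of 3. Stroke libraries (orange) stand above the others for Sqle, Soat1, Insig1, Idi1 and Cyp51 and below them for Scap, Insig2 and Ggps1, while vehicle and bexarotene libraries overlap for most genes.

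Other sterol genes, taken from a list of 19 of which 17 could be tested, showed 7 higher and 2 lower with stroke in vehicle mice, beside 27.2% and 21.1% of all genes. Nceh1, which hydrolyses cholesterol ester, averaged 32.8 CPM without and 149 CPM with stroke (log2 fold change 2.18 ± 0.22, SE, the same quantity given for the next genes). Lysosomal lipase Lipa averaged 210.4 and 291 CPM (0.47 ± 0.10), and the receptor Lrp1 244 and 385 CPM (0.66 ± 0.23). Soat2, the second esterifying enzyme, averaged 0.965 and 4.59 CPM (2.25 ± 0.54), and Pdss1, Acat1 and Dhdds also rose. Stard3 and Gramd1a, which move sterol between membranes, fell (-0.32 ± 0.10 and -0.48 ± 0.16). In bexarotene mice 4 of the 17 rose (Lipa, Nceh1, Soat2 and Pdss1) and Osbp and Gramd1a fell, beside 26.8% and 21.2% of all genes. The site-1 and site-2 proteases that cut SREBP, Mbtps1 and Mbtps2, did not pass, at -0.14 ± 0.09 and -0.38 ± 0.19 in vehicle mice.

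None of the 28 sterol genes passed the edgeR test in any of the 3 bexarotene comparisons, beside 0.509% of all genes called in young, 0.258% in aged and 0.058% in aged stroke mice. At an unadjusted p under 0.05 there were 2, 3 and 0 of the 28 members, beside 8.37%, 6.52% and 6.36% of all genes. DESeq2 called 0, 1 (Lbr, in aged mice) and 0 members, beside 1.35%, 0.625% and 0.38% of all genes, and limma voom called none, beside 0.348%, 0.116% and 0.18%. The drug check stood in the same libraries: Abcg1, a cholesterol exporter switched on by liver X receptors that pair with the retinoid X receptor, rose from a mean of 103 to 486 CPM in young, from 95.8 to 450.0 CPM in aged and from 126 to 308 CPM in aged stroke mice. Abca1, the other exporter, rose by log2 1.11 ± 0.14 (SE) in young and 0.96 ± 0.14 in aged mice and had 0.58 ± 0.14 in aged stroke mice, where it did not pass. The 95% intervals of the members' fold changes lay within 1 on the log2 scale in either direction for 25 genes in young, 26 in aged and 27 in aged stroke mice.

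In young mice the control genes had overlapping levels: Srebf2 was at 34.1, 29.3 and 33.9 CPM with vehicle and 37.5, 33.6 and 28.5 CPM with bexarotene (0.031 ± 0.16, log2, SE). Scap was at 47.0, 49.6 and 52.4 CPM with vehicle and 59.5, 51.1 and 56.6 CPM with bexarotene. Insig1 ranged over 10.0, 13.8 and 14.6 CPM with vehicle and 17.8, 14.6 and 11.2 CPM with bexarotene. No control gene passed there, and Insig2, at 81.9, 94.7 and 94.9 CPM with vehicle and 73.8, 83.9 and 76.7 CPM with bexarotene, came closest (log2 -0.21 ± 0.10 (SE), edgeR adjusted p = 0.557). In the mevalonate arm, Idi1 stood at 14.8, 13.6 and 16.4 CPM with vehicle and 15.1, 14.9 and 15.3 CPM with bexarotene. Pmvk was measured at 6.39, 5.93 and 9.86 CPM with vehicle and 7.09, 6.68 and 9.24 CPM with bexarotene. Mvd had 7.73, 7.96 and 8.38 CPM with vehicle and 4.83, 8.47 and 6.38 CPM with bexarotene. All of these ranges overlapped. For Fdps the young values were 14.4, 17.5 and 16.8 CPM with vehicle and 14.0, 18.1 and 12.1 CPM with bexarotene. For Ggps1 they were 95.6, 104 and 102 CPM with vehicle and 91.3, 92.8 and 107 CPM with bexarotene. Neither gene passed the test. Mvk, in a range of 1.91 to 5.06 CPM, was lower in all 3 bexarotene libraries, the one member with that order in young mice beside 6.01% of all genes (log2 -0.70 ± 0.35 (SE), edgeR adjusted p = 0.628).

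Past mevalonate, Sqle was at 7.25, 7.69 and 5.32 CPM in young vehicle and 8.42, 8.95 and 6.95 CPM in young bexarotene libraries. Fdft1 was at 10.97, 13.4 and 9.95 CPM with vehicle and 10.5, 13.6 and 13.6 CPM with bexarotene, and Cyp51 at 21.0, 25.1 and 25.2 CPM with vehicle and 20.2, 23.1 and 20.1 CPM with bexarotene. These 3 overlapped between treatments. Among transport genes, Soat1 was at 134, 141 and 126 CPM with vehicle and 106, 138 and 128 CPM with bexarotene. Npc2 was at 361, 429 and 456 CPM with vehicle and 363, 446 and 399.8 CPM with bexarotene, and Stard4 at 1.62, 1.62 and 2.79 CPM with vehicle and 1.44, 4.18 and 1.05 CPM with bexarotene. The groups overlapped for each, and Stard4 was highest in bexarotene replicate 2.

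Lbr was the member nearest to a bexarotene call. In young mice it was at 110.2, 122 and 122 CPM with vehicle and 129.6, 155 and 154 CPM with bexarotene, without overlap, as were 7.09% of all genes in that direction (log2 0.31 ± 0.11 (SE), edgeR adjusted p = 0.374). In aged mice it was at 98.6, 114 and 100.5 CPM with vehicle and 148, 138 and 158 CPM with bexarotene, again without overlap, 1.42-fold higher (log2 0.51 ± 0.11 (SE), edgeR adjusted p = 0.0745). DESeq2 called it there (adjusted p = 0.00993), limma voom did not (adjusted p = 0.136), and the authors' deposited table, which holds only genes under an adjusted p of 0.05, lists it with a log2 fold change of 0.44 and an adjusted p of 0.00285. In aged stroke mice the values were 184, 213 and 172 CPM with vehicle and 192, 192 and 242 CPM with bexarotene and overlapped (log2 0.14 ± 0.11 (SE), edgeR adjusted p = 0.951). Although Ly6G beads had been used, the 8 neutrophil markers summed to 195 to 398 CPM in aged vehicle and 588 to 1447 CPM in aged bexarotene libraries, and the monocyte and macrophage markers to 72.0 to 115 and 144 to 243 CPM. No gene of either list was at 0 in a whole group (Vcan was at 0 in single libraries of both) or passed the test, and their part in the Lbr values was not tested. In young mice neutrophil sums overlapped, at 323 to 1158 CPM with vehicle and 208 to 1184 CPM with bexarotene.

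A few other members stood apart with bexarotene without passing. In aged mice Insig1, at 11.4, 13.1 and 10.6 CPM with vehicle and 21.4, 14.2 and 13.6 CPM with bexarotene, did not overlap, beside 6.47% of genes in that direction (log2 0.48 ± 0.19 (SE), edgeR adjusted p = 0.659). Soat1 was lower in all 3 aged bexarotene libraries, at 144, 151 and 148 CPM against 157, 199 and 174 CPM, beside 5.32% of genes (log2 -0.26 ± 0.12 (SE), edgeR adjusted p = 0.760). In aged stroke mice Stard4 was at 2.83 to 3.96 CPM with bexarotene and 5.79 to 6.77 CPM with vehicle, beside 5.48% of genes in that order (log2 -0.86 ± 0.44 (SE), edgeR adjusted p = 0.822). Neither by age nor by stroke did a difference in the response to bexarotene pass for any member or any gene by edgeR (0% of all genes called). At an unadjusted p under 0.05 there were 0 and 1 members among 456 and 638 genes (2.94% and 4.11% of all genes), DESeq2 called 5 and 9 genes and limma voom none. These comparisons share their control libraries with the ones above.

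**Figure D4:**
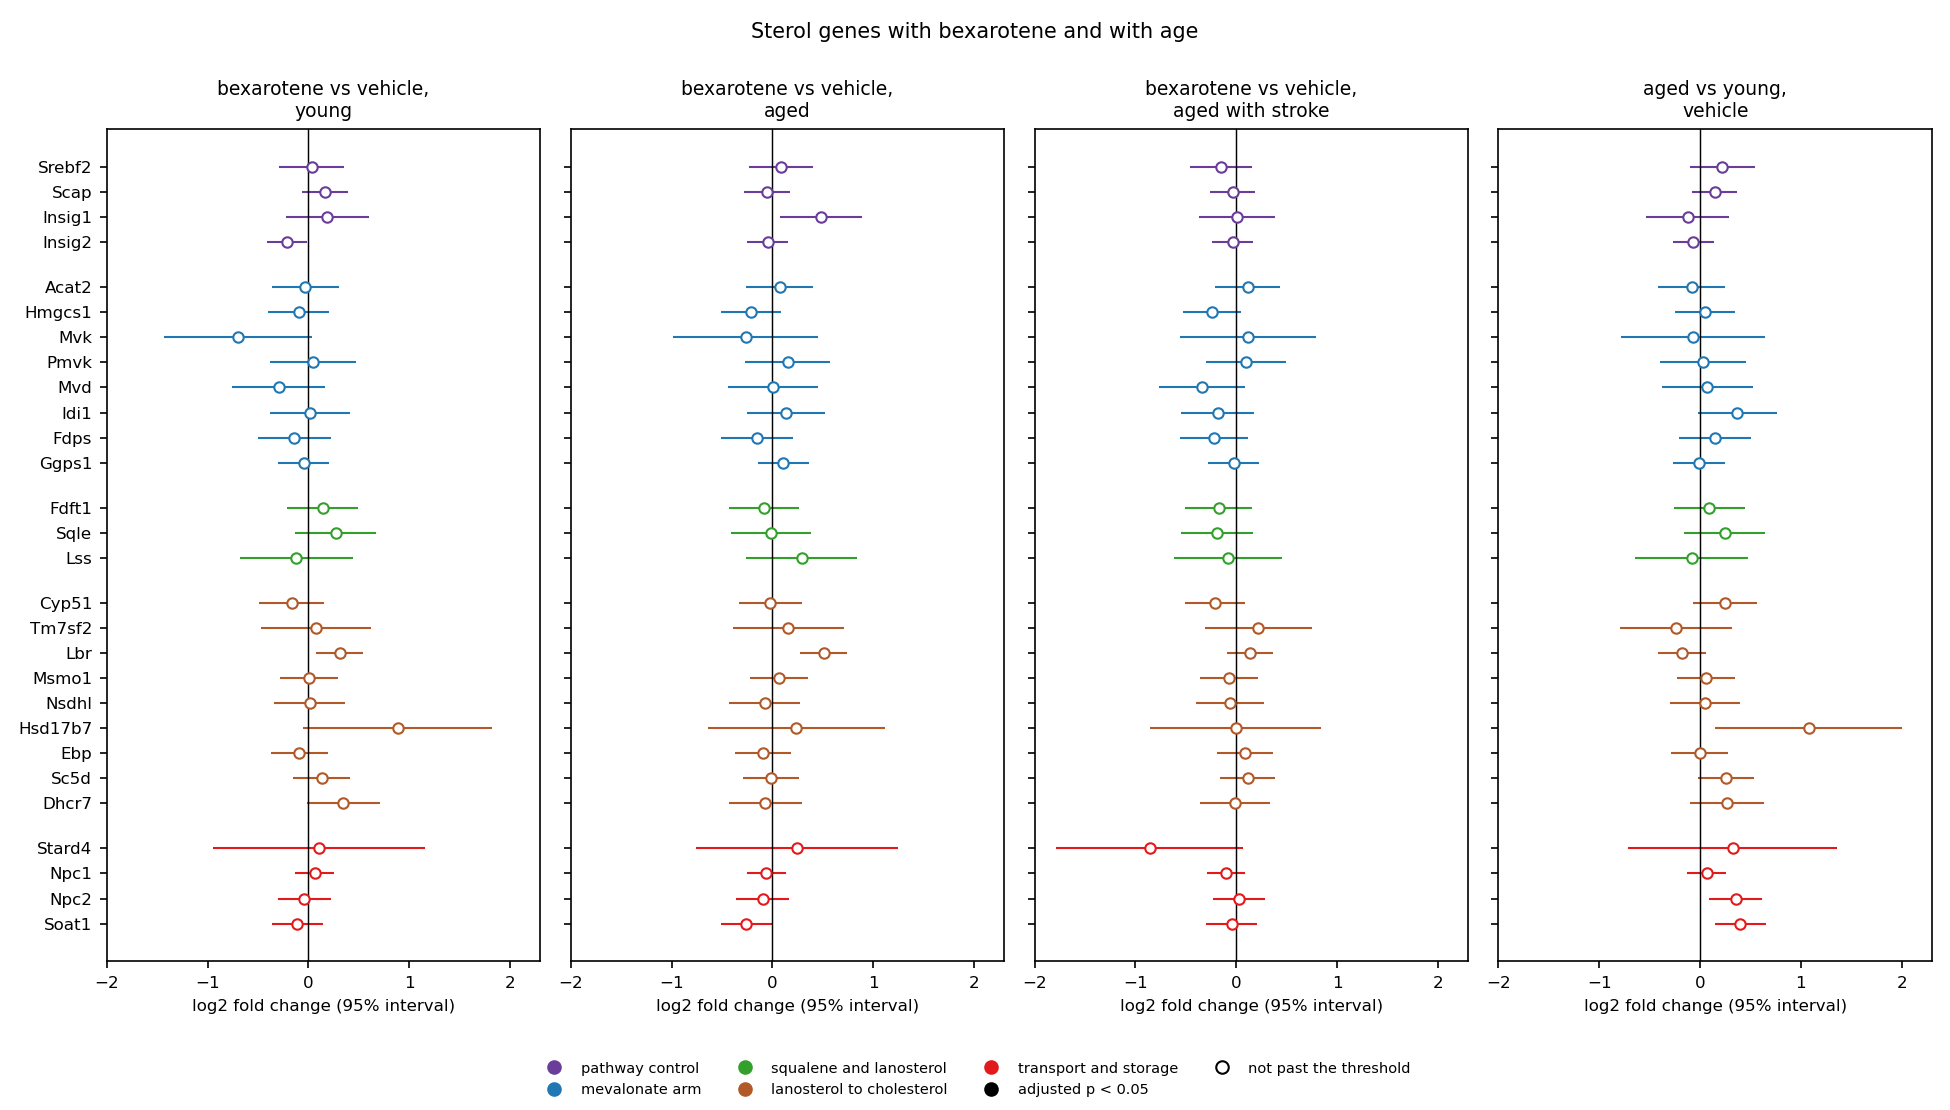
Log2 fold change of each sterol gene with bexarotene in young, aged and aged stroke mice and with age in vehicle mice, 3 libraries against 3, with 95% intervals from the edgeR fit; colours give the role. No point is filled, since none passed adjusted p of 0.05; intervals lie above zero for Lbr in young and in aged mice and Insig1 in aged mice with bexarotene, and for Hsd17b7, Npc2 and Soat1 with age, and below zero for Insig2 in young and Soat1 in aged mice with bexarotene.

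With age, comparing aged with young vehicle mice, no member passed the edgeR test, beside 1.7% of all genes called, and 3 of 28 members had an unadjusted p under 0.05, beside 13.1% of all genes. In the same libraries 7 border macrophage markers summed to 826 to 1055 CPM in young and 498 to 641 CPM in aged mice, where 3 of the 7 fell, and microglial markers to 45100 to 53182 and 39773 to 42992 CPM. None was at 0 in a whole group, and their part in the values with age was not tested. The 8 neutrophil markers, none of which passed, all had fold changes below zero and summed to 323 to 1158 CPM in young and 195 to 398 CPM in aged mice. DESeq2 called 1 (Soat1), beside 3.34% of all genes, and limma voom none, beside 0.992%. Soat1 was at 134, 141 and 126 CPM in young and 157, 199 and 174 CPM in aged libraries, all aged above all young (log2 0.40 ± 0.12 (SE), edgeR adjusted p = 0.114). DESeq2 gave an adjusted p of 0.0438, and the authors' deposited table lists 0.26 on the log2 scale with an adjusted p of 0.0308. Npc2 had the same order, from 361, 429 and 456 to 459, 567 and 565 CPM (log2 0.35 ± 0.13 (SE), edgeR adjusted p = 0.198). Hsd17b7, a reductase of the demethylation complex, was at 3.24, 3.37 and 3.93 CPM in young and 9.69, 8.22 and 4.41 CPM in aged libraries (log2 1.08 ± 0.44 (SE), edgeR adjusted p = 0.284), on 25 to 107 counts. Srebf2 and Scap also did not overlap, which makes 5 members higher with age in this sense, beside 9.69% of all genes. Idi1 had overlapping values, 14.8, 13.6 and 16.4 CPM in young and 13.9, 24.1 and 20.2 CPM in aged libraries (log2 0.37 ± 0.19 (SE), edgeR adjusted p = 0.421).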

How the data were processed

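The authors' deposited table of raw read counts per gene was used; the submitters' processing notes name build GRCm39, Trimmomatic 0.40, STAR 2.7.10a, GATK and R 4.4.2, without a counting tool or strand setting. The log2 fold changes and adjusted p-values of the authors' deposited tables were used only where named. Per the file headers, those tables also hold the authors' mean signal (mean normalised count) per gene, which is not printed. Counts were tested with edgeR 4.0.16 (R 4.3.3): filterByExpr (minimum count 10), TMM factors, robust quasi-likelihood fit of all 18 libraries with one mean per group, and Benjamini-Hochberg adjustment over 15528 genes, called under 0.05. CPM used TMM library sizes; intervals are 95%. The same code was tested on simulated data, with changes placed in the aged bexarotene group. It recovered 6 of 49 changes of log2 0.5, 27 of 47 of 1, 30 of 49 of 1.5 and 38 of 50 of 2. Of 105 calls there, 4 were false. Replicates of a group differed beyond counting noise. The labels give no batch.

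The members and lists were chosen with earlier results of these data known. All 28 members are accounted for; those that passed in any comparison, and both Insig genes, are given library by library, and of other lists the counts and some of the members that passed. Some items of one list are not reported here. Replicate numbers are shared between groups: deviations of same-numbered libraries correlated at -0.11 to 0.39 over 45 pairs. All 3 pairs were over 0.1 for young vehicle and young bexarotene (0.259, 0.276 and 0.140), the only comparison counted as paired, from the data alone. A replicate block changed no member call there. In all, 3 of 15 group pairs had this pattern, among them aged bexarotene with young vehicle and with young bexarotene, which were not compared directly. Alternatives were RLE and upper-quartile factors, no filter, DESeq2 1.42.0, limma 3.58.1 voom, only the groups compared, the block, a choroid plexus covariate and leaving out libraries.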

Additional observations from a re-analysis of the deposited data

How the results depend on the processing

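No member value that passed, as reported or under an alternative, changed sign between them; of all 4144 member values under the alternatives, 353 had the other sign from the reported one, and none of these pairs held a call. With upper-quartile scaling the share of all stroke calls that were higher fell from 56.2% to 44.5% in vehicle and from 55.8% to 44.7% in bexarotene mice. Of the values for the 40 single-gene results that passed in any fit, 594 kept their side of the threshold, 66 no longer passed and 20 newly passed. Scap, Insig2, Ggps1, Sqle, Lbr and Soat1 kept their stroke calls in both treatment settings under all 17 alternatives, as did Insig1 and Cyp51 in vehicle mice and Npc2 in bexarotene mice. The count of members called with stroke in vehicle mice, 16, ranged from 9 to 17 when libraries were left out, and that in bexarotene mice, 12, from 8 to 12; fewer libraries were tested there. With bexarotene in aged mice the count went from 0 to 1 (Lbr) with no filter, with DESeq2, with the choroid plexus covariate and with the replicate block. With age it went from 0 to 1 with no filter (Hsd17b7, adjusted p = 0.0193) and with DESeq2 (Soat1).

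The replicate block, in comparisons whose libraries share only a number, gave Lbr a log2 fold change of 0.51 with bexarotene in aged mice (adjusted p = 0.0459); member counts under the block were 0, 1 and 0 for bexarotene in young, aged and aged stroke mice, 0 with age, and 16 and 12 with stroke. The 16 with stroke in vehicle mice under the block held Acat2, as lower, in place of Fdft1. Of 18 libraries, 14 correlated best with their own number, a hint from the data and not from the design.

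Over all genes, calls ranged with the alternatives from 5 to 457 (79 as reported) for bexarotene in young, 3 to 339 (40) in aged and 0 to 419 (9) in aged stroke mice, 90 to 677 (264) with age, 4932 to 7860 (7497) and 5283 to 7794 (7450) with stroke in vehicle and bexarotene mice, and 0 to 138 and 0 to 256 (0 in each) for the 2 differences of the bexarotene effect. The cause of these shifts was not tested. Depth limits Stard4, Mvk and Hsd17b7, with 11, 16 and 19 counts in their lowest library.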

Other observations

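Genes of fatty acid synthesis, the SREBP-1 side of the same control system, gave calls in both directions with stroke. In vehicle mice 3 of 12 rose and 2 fell, beside 27.2% and 21.1% of all genes: Srebf1, which encodes SREBP-1, averaged 49.6 CPM without and 68.1 CPM with stroke, Fasn, fatty acid synthase, 11.9 and 20.2 CPM, and Acaca, acetyl-CoA carboxylase, 3.89 and 7.47 CPM. Acly, which supplies cytosolic acetyl-CoA to both fatty acid and sterol synthesis, fell from 349 to 277 CPM, and the desaturase Fads1 fell from 158 to 112 CPM. In bexarotene mice Acaca, Fasn, Acss2 and Scd2 rose and Acly and Fads1 fell, beside 26.8% and 21.2% of all genes. Scd2, a stearoyl-CoA desaturase, averaged 79.4 CPM without and 133 CPM with stroke there (log2 0.75 ± 0.17, SE, edgeR adjusted p = 0.00158), and 124 and 135 CPM in vehicle mice, where it did not pass. No gene of this list passed with bexarotene or with age.

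Gramd1b, which carries cholesterol from the plasma membrane to the endoplasmic reticulum, averaged 5.59 CPM in young vehicle and 18.4 CPM in young bexarotene mice (log2 1.69 ± 0.29, SE, edgeR adjusted p = 0.00897). It did not overlap between treatments in aged or aged stroke mice either, at means of 6.97 and 13.6 CPM and of 10.5 and 18.1 CPM, but did not pass there (adjusted p = 0.348 and 0.513).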
